A study of Mus musculus with 6 samples.

Results

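The receptors through which mast cells take up growth signals from stem cell factor (SCF), IL-3, IL-9 and related cytokines were examined in bone marrow-derived mast cells (BMMCs) from a pair of mouse strains. They were chosen by name, as 10 of the 35297 genes to which transcripts of the deposited tables could be matched: Kit, Il3ra, Csf2rb, Csf2rb2, Csf2ra, Il5ra, Il9r, Il2rg, Il4ra and Epor. BMMCs were grown from bone marrow of naive wild-type mice of the strains BALB/c and C57BL/6, and stranded mRNA libraries were made after 20 days of culture, 3 from BALB/c (S9, S10 and S11) and 3 from C57BL/6 (S12, S13 and S14). In both strains the medium contained SCF, TGF-β1, IL-9 and IL-3, so every library comes from cells already exposed to ligands of several of these receptors, and strain is the only factor the labels vary. The study describes the libraries of a strain as biological replicates. The sources used here do not say whether they came from separate mice, so the p-values measure the spread between these libraries.

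Kit is the receptor tyrosine kinase for SCF, the main survival factor of tissue mast cells. The other genes encode class I cytokine receptors, which have no kinase of their own and signal through JAK kinases and STAT factors once a ligand joins their chains. In most of them a ligand-binding chain pairs with a shared chain. The alpha chains for IL-3 (Il3ra), GM-CSF (Csf2ra) and IL-5 (Il5ra) pair with the common beta chain Csf2rb, and mice carry in addition Csf2rb2, a beta chain for IL-3 alone. Il9r and Il4ra, the chains for IL-9 and IL-4, pair with the common gamma chain Il2rg, whereas Epor, the erythropoietin receptor of red cell precursors, pairs with itself.

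Reads assigned to genes numbered 28273365 to 35873036 in BALB/c and 28801452 to 37100869 in C57BL/6, and a further 2.69% to 3.12% of reads lay on transcripts that matched no gene symbol. Strains separated along principal component 1, which carried 90.6% of the variance. Of the 12 mast cell marker genes listed, all passed the filter on low counts, with a summed level of 43076 to 47122 TPM in BALB/c and 40912 to 44520.1 TPM in C57BL/6. TPM, the abundance measure deposited beside the counts, corrects for transcript length, so levels of different genes are compared below in TPM. Differences between strains are log2 fold changes of C57BL/6 over BALB/c, fitted on estimated counts with TMM scaling by edgeR's quasi-likelihood test. For genes, edgeR adjusted p-values are Benjamini-Hochberg values over the 12461 genes tested. Those of transcripts and of transcript shares are adjusted over the 28246 and 22882 transcripts in each test, and values from limma are named as such. Without TMM, the median log2 fold change of all genes moved from -0.0073 to -0.15 with plain library sizes and to -0.15 or -0.18 on the log2(TPM + 1) or log2(TPM + 0.1) scale, so a small positive difference can vanish on those scales.

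The reads cannot always tell close sequences apart, and 3 pairs of sequences bear on the results. The paralogous beta chains lie side by side on chromosome 15, Csf2rb at chr15:78209952-78238047 (plus strand) and Csf2rb2 at chr15:78166707-78189921 (minus strand) in GRCm39. Their coding sequences of 2691 and 2637 bases were 95.2% identical over 2631 aligned positions, with a longest identical run of 242 bases. The stretches below show the part of 60 coding bases with the most mismatches, 13, which are in capitals (chr15:78223093-78223152, plus strand, and chr15:78178579-78178638, minus strand).
Csf2rb: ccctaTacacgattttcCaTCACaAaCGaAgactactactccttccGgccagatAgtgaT
Csf2rb2: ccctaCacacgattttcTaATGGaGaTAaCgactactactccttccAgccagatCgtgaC
Such stretches let reads be assigned to one gene, whereas 18.8% of the 31-base words in Csf2rb transcripts also occurred in Csf2rb2, and 28.6% of those of Csf2rb2 in Csf2rb. Il3ra, Il2rg, Il4ra and Epor shared none of their words with another gene.

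Kit and Il9r are shown because each has forms that differ by a few bases inside the coding sequence. In the GENCODE annotation, Kit-201 and Kit-204 differ by 12 bases at the end of exon 9 of 21 (chr5:75799807-75799818, plus strand, GRCm39), which are in capitals between 12 flanking bases on each side.
Kit-201: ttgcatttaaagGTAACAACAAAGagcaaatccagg
Kit-204: ttgcatttaaagagcaaatccagg
Il9r-202 and Il9r-205 differ by 3 coding bases in exon 6 of 9 (chr11:32143379-32143381, minus strand), again in capitals.
Il9r-202: gaggcctgggagCAGgcccggcacaag
Il9r-205: gaggcctgggaggcccggcacaag
The deposited transcripts carry RefSeq names, whose sequences were not compared with these GENCODE forms, so no RefSeq name is assigned to a form here.

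In both strains the beta chains Csf2rb2 and Csf2rb stood at the top of the receptor genes and Il5ra at the bottom. Together the 10 genes took 0.374% to 0.506% of all TPM. In BALB/c the order of mean levels was Csf2rb2, Csf2rb, Kit, Il2rg, Il4ra, Il3ra, Il9r, Csf2ra, Epor and Il5ra, and among neighbours in it the library ranges overlapped for Csf2ra and Epor alone. In C57BL/6 Il4ra stood above Il2rg, and no neighbours overlapped. Among all genes ranked by mean TPM, Csf2rb2 was number 71 and 51 (BALB/c, then C57BL/6), Csf2rb number 107 and 111, and Kit number 216 and 200.

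**Figure D1:**
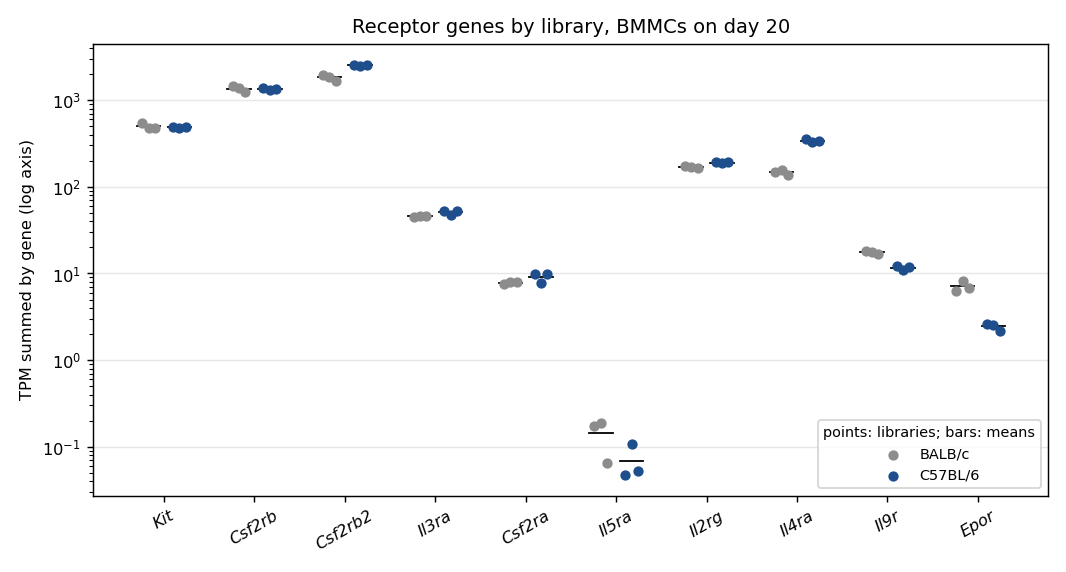
TPM of each receptor gene (log axis) in the 3 BALB/c libraries (grey) and the 3 C57BL/6 libraries (blue), with bars at the strain means. Il4ra lay higher and Epor and Il9r lower in each C57BL/6 library than in any BALB/c library, whereas the points of Kit, Csf2rb and Csf2ra overlapped between strains.

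The strains were compared to see whether mast cells grown under the same cytokines carry the same set of receptors. With the study's thresholds, an adjusted p under 0.05 together with a change beyond 2-fold, Il4ra was higher and Epor lower in C57BL/6, which is 1 of 9 tested members in each direction, against 7.73% and 5.54% of all genes tested. By adjusted p alone 7 members were higher and 2 lower in C57BL/6, against 27.0% and 25.9% of all genes. Il5ra had too few reads for the test. The median log2 fold change was 0.26 over the 9 members and -0.0073 over all genes tested, and the median size of a change, either way, was 0.39 and 0.24. Read counts scaled by TMM library size (CPM) did not overlap between strains for 9 of 9 members, as for 61.9% of all genes. In RNA of whole cultures, a change in the share of cells with a receptor and a change in RNA per cell cannot be told apart.

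**Figure D2:**
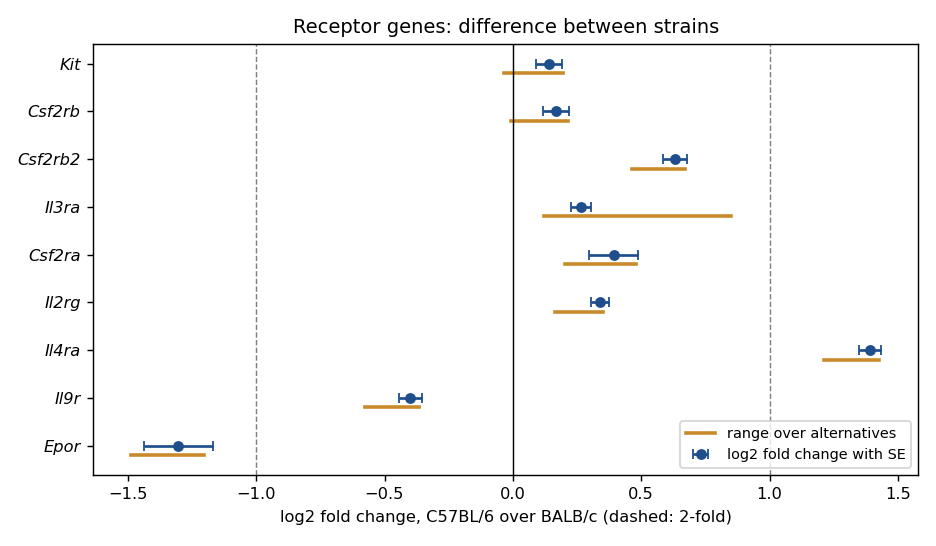
Difference between strains (log2, C57BL/6 over BALB/c) for the 9 receptor genes tested (blue points, bars are standard errors), with the range of the value over the alternative settings (orange, 18 for Csf2rb and Csf2rb2, whose summed value is not drawn, and 19 for each other gene) and dashed lines at a 2-fold change. Il4ra lay beyond the line on the right and Epor beyond the line on the left under each setting, and the ranges of Kit and Csf2rb reached across 0.

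Kit (chromosome 5, chr5:75735576-75817404, plus strand) showed a small difference that depends on the scale. Its level was 546, 471 and 482 TPM in BALB/c and 493, 481 and 487 TPM in C57BL/6. The strains overlapped on this scale, and library S9 was the highest of all. On the TMM scale Kit was 1766 ± 125 CPM (SD, n = 3) in BALB/c and 1947 ± 26.3 CPM (SD, n = 3) in C57BL/6, a log2 fold change of 0.14 (SE 0.049, edgeR adjusted p = 0.0380). With plain library sizes the log2 fold change was -0.0039 (edgeR adjusted p = 0.950), and on the log2(TPM + 1) scale it was -0.034 (limma adjusted p = 0.619). The call was also lost without any 1 library other than S9, where the edgeR adjusted p ranged from 0.0722 to 0.127, and with upper-quartile scaling (0.0609), unmatched transcripts kept (0.0993) or curated transcripts alone (0.0575).

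The reads of Kit fell on 2 RefSeq transcripts whose lengths, 5189 and 5205 bases, differ by 16. The shorter, NM_021099.3, took 68.3%, 62.9% and 68.3% of Kit reads in BALB/c and 71.7%, 69.2% and 70.8% in C57BL/6. It was thus the main transcript in every library, and its share in C57BL/6 lay above the BALB/c range. The difference of 4.07 percentage points was not past the threshold in edgeR's test of transcript shares (adjusted p = 0.999961), and the exact two-sided permutation test gave p = 0.1, the smallest it can give for 3 libraries against 3.

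The beta chain Csf2rb2 was higher in C57BL/6, whereas Csf2rb was close to its BALB/c level. Csf2rb2 lay at 1945, 1871 and 1657 TPM in BALB/c and at 2575, 2447 and 2519.7 TPM in C57BL/6, without overlap. In CPM it was 5820.1 ± 406 (SD, n = 3) in BALB/c and 9019 ± 13.3 (SD, n = 3) in C57BL/6. This gave a log2 fold change of 0.63 (SE 0.048, edgeR adjusted p = 5.66e-06), 1.55-fold higher in C57BL/6. Csf2rb, the chain shared by the IL-3, GM-CSF and IL-5 receptors, lay at 1463, 1372 and 1224 TPM in BALB/c and at 1365, 1304 and 1360.3 TPM in C57BL/6. Here the strains overlapped, and the lowest and the highest library were both from BALB/c. Its log2 fold change of 0.17 (SE 0.050, edgeR adjusted p = 0.0186) became 0.024 with plain library sizes (adjusted p = 0.707) and -0.0069 on the log2(TPM + 1) scale (limma adjusted p = 0.933). Without library S11 the value fell to 0.11 and missed the threshold (edgeR adjusted p = 0.0547). Without S14 it was 0.16 and with unmatched transcripts kept 0.16, and each missed the threshold as well (adjusted p = 0.0535 and 0.0602).

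Csf2rb2 supplied 56.7%, 57.2% and 57.01% of the reads of both beta chains in BALB/c and 64.7%, 64.7% and 64.4% in C57BL/6. The shares differed by 7.63 percentage points, while the SD within a strain was 0.231 in BALB/c and 0.181 in C57BL/6 (n = 3 each). The exact two-sided permutation test gave p = 0.1, the smallest it can reach with 3 libraries against 3. Reads of both strains were assigned to the same set of reference transcripts. Whether sequence differences between the strains shift this share was not tested. Summed as 1 gene, which does not depend on how reads were split between the paralogs, the beta chains had a log2 fold change of 0.45 (SE 0.048, edgeR adjusted p = 5.09e-05).

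**Figure D3:**
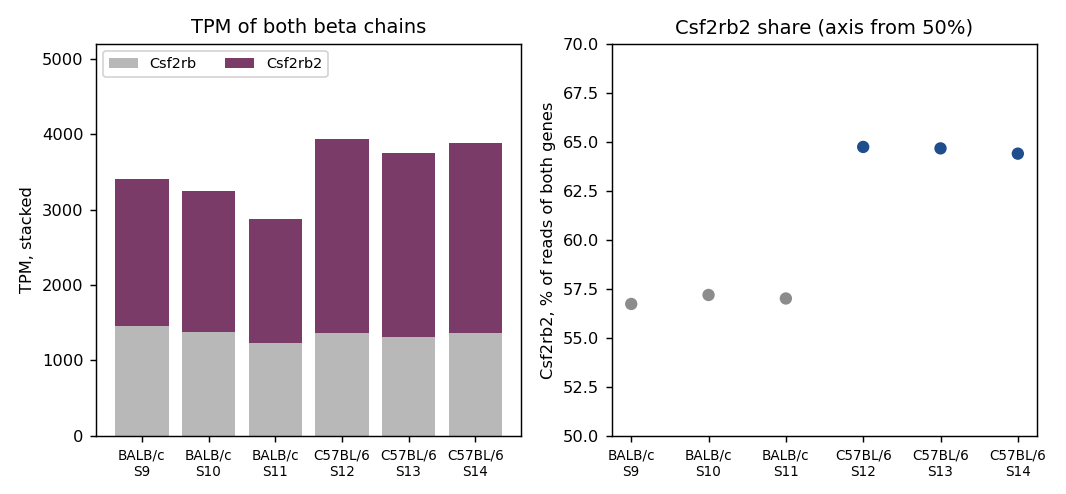
Left, TPM of Csf2rb (grey) and Csf2rb2 (purple), stacked, in each library, with sums of 2881 to 3408 TPM in BALB/c and 3751 to 3940 in C57BL/6. Right, the percentage of the reads of both genes that was assigned to Csf2rb2, on an axis that starts at 50%, about 57% in each BALB/c library and about 64% to 65% in each C57BL/6 library.

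Each beta chain had a minor transcript that rose in C57BL/6. Of Csf2rb, NM_001358854.1 (4852 bases) took 5.03%, 4.25% and 5.02% of reads in BALB/c and 8.09%, 8.30% and 9.64% in C57BL/6. Its log2 fold change was 1.02 (SE 0.11, edgeR adjusted p = 0.00410), and its share of the gene changed as well (adjusted p = 0.00140). Without S10, S11 or S14 the transcript was under 2-fold, with log2 fold changes of 0.92 to 0.997, and with plain library sizes it was 0.89. The remaining reads lay on NM_007780.4, the main transcript of Csf2rb. Of Csf2rb2, NM_001287389.1 (4413 bases) took 9.99%, 18.7% and 18.6% of reads in BALB/c and 25.7%, 22.9% and 21.6% in C57BL/6. Library S9 was far below the other BALB/c libraries, and the strains did not overlap. This transcript had a log2 fold change of 1.20 (SE 0.23, edgeR adjusted p = 0.0244), while its share did not pass the threshold (adjusted p = 0.457). Without S9 the log2 fold change was 0.98, under 2-fold, and without S11, S12, S13 or S14 the adjusted p missed the threshold, at 0.0719 to 0.0873. Its length and the 4740 bases of the main transcript NM_007781.3 equal those of the GENCODE forms Csf2rb2-202 and Csf2rb2-201, which differ by 327 coding bases.

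Of the alpha chains, Il3ra and Csf2ra were each somewhat higher in C57BL/6 and far below the beta chains. Il3ra, the chain that binds IL-3 (chr14:8113752-8123508, minus strand), lay at 45.0, 46.1 and 45.8 TPM in BALB/c and at 52.2, 47.4 and 52.4 TPM in C57BL/6. All C57BL/6 libraries were above the BALB/c range, with a log2 fold change of 0.26 (SE 0.040, edgeR adjusted p = 0.000500). The summed TPM of the beta chains was 75.7, 70.4 and 62.9 times that of Il3ra in BALB/c and 75.5, 79.1 and 74.1 times in C57BL/6. These ratios overlapped, with an exact two-sided permutation p of 0.3.

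The reads of Il3ra were spread over 16 of its 18 RefSeq transcripts, of which 1 is curated and the others are predicted. The curated NM_008369.1 took 28.3%, 37.1% and 38.6% of them in BALB/c and 52.2%, 53.7% and 49.8% in C57BL/6. Its share was higher in each C57BL/6 library, yet the test of shares did not pass (edgeR adjusted p = 0.999961). With curated transcripts alone the log2 fold change of Il3ra was 0.85 (SE 0.12, edgeR adjusted p = 0.00137), against 0.26 from all transcripts. It was smaller, 0.12 with plain library sizes (edgeR adjusted p = 0.0359) and 0.15 on both TPM scales (limma adjusted p = 0.0255 and 0.0248).

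Csf2ra, the chain for GM-CSF (chr19:61212395-61216892, minus strand), had 301, 302 and 388 reads in BALB/c and 440, 309 and 496 in C57BL/6. That is 7.51, 7.87 and 8.02 TPM against 9.82, 7.84 and 9.87 TPM, with library S13 inside the BALB/c range. Its transcript NM_009970.2 took 88.4% to 92.1% of these reads. Its log2 fold change of 0.39 (SE 0.097, edgeR adjusted p = 0.00780) missed the threshold with plain library sizes (0.25, adjusted p = 0.0551) and on both TPM scales (0.20 and 0.22, limma adjusted p = 0.0825 and 0.0797). Il5ra, the chain for IL-5 that is best known from eosinophils (chr6:106686622-106725998, minus strand), had 13, 13 and 6 reads in BALB/c and 4, 8 and 5 in C57BL/6. At this depth no difference of Il5ra was detectable. All of its reads lay on 1 transcript, NM_008370.2. Of 8 eosinophil marker genes, 5 had no read in any library, among them the granule protein gene Epx, and none had more than 15.

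In the gamma chain family, Il4ra rose the most of all members in C57BL/6. This gene for the chain that binds IL-4 (chr7:125151079-125182844, plus strand) lay at 147, 155 and 137 TPM in BALB/c and at 353, 332 and 335 TPM in C57BL/6. The lowest C57BL/6 library was above 2 times the highest BALB/c library. On the TMM scale the means were 513 ± 26.3 CPM (SD, n = 3) and 1346 ± 25.7 CPM (SD, n = 3). Its log2 fold change was 1.39 (SE 0.044, edgeR adjusted p = 2.43e-08), 2.62-fold higher, and it lay between 1.21 and 1.43 over the alternatives. Il2rg, the common gamma chain (chromosome X, chrX:100307984-100311861, minus strand), lay at 175, 171 and 163 TPM in BALB/c and at 193, 186 and 192 TPM in C57BL/6. The difference was small, a log2 fold change of 0.34 (SE 0.035, edgeR adjusted p = 4.30e-05), without overlap between strains. It was 0.20 with plain library sizes and 0.17 on both TPM scales, and passed the threshold on each. Nearly all Il2rg reads, 96.6% to 98.2%, lay on NM_013563.4. The ratio of Il4ra to Il2rg was 0.840, 0.907 and 0.843 in the BALB/c libraries, against 1.83, 1.79 and 1.74 in those of C57BL/6. The chains thus changed places in the order of levels, with an exact two-sided permutation p of 0.1, the smallest possible.

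Both RefSeq transcripts of Il4ra rose, by unequal amounts. The main one, NM_001008700.4 (5133 bases), had 12989, 12883 and 14366 reads in BALB/c and 37726, 31149 and 39387 in C57BL/6, a log2 fold change of 1.48 (SE 0.053, edgeR adjusted p = 0.000150). The minor one, NM_001363983.1 (5219 bases), rose less, by 0.88 (SE 0.048, edgeR adjusted p = 0.000505). Its share of Il4ra reads was 19.9%, 20.2% and 21.9% in the BALB/c libraries, against 13.7%, 14.8% and 15.5% in those of C57BL/6, a change that passed the test of shares (adjusted p = 0.00963) and missed it without any 1 of the libraries S10 to S14 (0.0629 to 0.213) and with no filter on low counts (0.457). Because Il4ra is the member with the largest rise, the 250 bases before its start are printed from RefSeq's GRCm38.p6 sequence (chr7:125552021-125552270, plus strand), with the motif GGGCGG, searched on both strands, in capitals.
Il4ra: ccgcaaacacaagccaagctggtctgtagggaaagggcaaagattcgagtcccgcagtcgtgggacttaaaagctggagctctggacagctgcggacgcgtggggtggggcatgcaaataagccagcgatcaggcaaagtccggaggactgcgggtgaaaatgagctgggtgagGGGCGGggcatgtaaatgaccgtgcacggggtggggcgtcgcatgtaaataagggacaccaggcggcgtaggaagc
It held 1 match of GGGCGG, which 32.7% of 32851 promoters of this length hold, and no match of the other motifs searched, which were AGATAA (the GATA motif), TTCNNNGAA (the STAT motif), CACGTG (an E-box) and CACACCC (the CACCC motif). This is the reference genome, and no BALB/c sequence was used.

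Some marker genes of other cell types were also higher in C57BL/6. Of 8 basophil genes, Mcpt8, Prss34, Ccl9 and Cebpa rose past both thresholds, where 7.73% of all genes did. Prss34, Ccl9 and Cebpa had at most 13 reads in any BALB/c library and entered the test through C57BL/6. By edgeR adjusted p alone 5 were higher and 1, Il18r1, was lower (log2 fold change -0.54, adjusted p = 0.00415), against 27.0% and 25.9% of all genes, and Cd200r3 and Itga2 did not pass. The summed level of the list was 515 to 529.8 TPM in BALB/c and 639.9 to 668 in C57BL/6. None of the 8 was at 0 in all libraries. Mcpt8, a protease gene listed here for basophils, went from 172 to 185 TPM in BALB/c to 329 to 353 in C57BL/6. Of 9 macrophage genes 2 were tested, Adgre1 and Cd68, and both rose past both thresholds, against 7.73% of all genes. Adgre1 had at most 16 reads in any BALB/c library. The list had a summed level of 0.951 to 1.84 TPM in BALB/c and 8.41 to 9.77 in C57BL/6. C1qa, C1qb, C1qc and Csf1r had no reads in any library. The part of basophils or macrophages in the difference of Il4ra was not tested.

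Il9r, the receptor chain for the IL-9 present in the medium (chr11:32137541-32150279, minus strand), was lower in C57BL/6. Its level was 18.3, 17.5 and 16.8 TPM in BALB/c and 12.1, 11.02 and 12.03 TPM in C57BL/6, without overlap. The log2 fold change was -0.40 (SE 0.045, edgeR adjusted p = 7.12e-05), and BALB/c was 1.32-fold higher. Il2rg exceeded Il9r 9.58 to 9.75 times in BALB/c and 15.9 to 16.9 times in C57BL/6 on the TPM scale. The exact two-sided permutation test of this ratio gave p = 0.1, the smallest possible. With curated transcripts alone, which took 17.5% to 32.7% of Il9r reads, the log2 fold change was -0.36 (SE 0.24) and missed the threshold (edgeR adjusted p = 0.277).

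Of Il9r, 2 transcripts were read in 1 strain each. NM_008374.2 (3083 bases) had 182, 175 and 201 reads in BALB/c and 0 in each C57BL/6 library. Set against a floor of 3 reads per library, it was at least 59.0-fold lower in C57BL/6 (edgeR adjusted p = 0.00253), and its share of the gene changed (adjusted p = 0.000138). NM_001134458.1 (3086 bases), 3 bases longer, had 339, 287 and 135 reads in BALB/c and 279, 289 and 429 in C57BL/6. Summed, these close forms had 520.5, 462 and 336 reads in BALB/c and 279, 289 and 429 in C57BL/6, and the strains overlapped. The predicted XM_017314298.2 had 0 reads in each BALB/c library and 140, 78.5 and 37.8 in C57BL/6, at least 30.3-fold higher (edgeR adjusted p = 0.0197; share, adjusted p = 0.000601). It missed the threshold for the level without S12 or S13 (0.0808 and 0.0923). Most Il9r reads in every library lay on predicted transcripts, led by XM_006514539.3, with 38.4% to 57.4%.

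Over all members, 37 of 54 transcripts were tested. Past both thresholds 4 were higher and 2 lower in C57BL/6, against 6.39% of all 28246 transcripts tested. The share of the gene changed for 4, against 1.37% of the 22882 transcripts in that test. The Il9r transcripts NM_008374.2 and XM_017314298.2 are in both counts and were tested only through the strain in which they were read. With at least 10 counts in every library they were not tested, and the share changed for 2. The error of assigning reads between transcripts of a gene is not part of these tests. Neither is any effect of sequence differences between the strains on that assignment, also for the Il9r transcripts read in 1 strain.

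**Figure D4:**
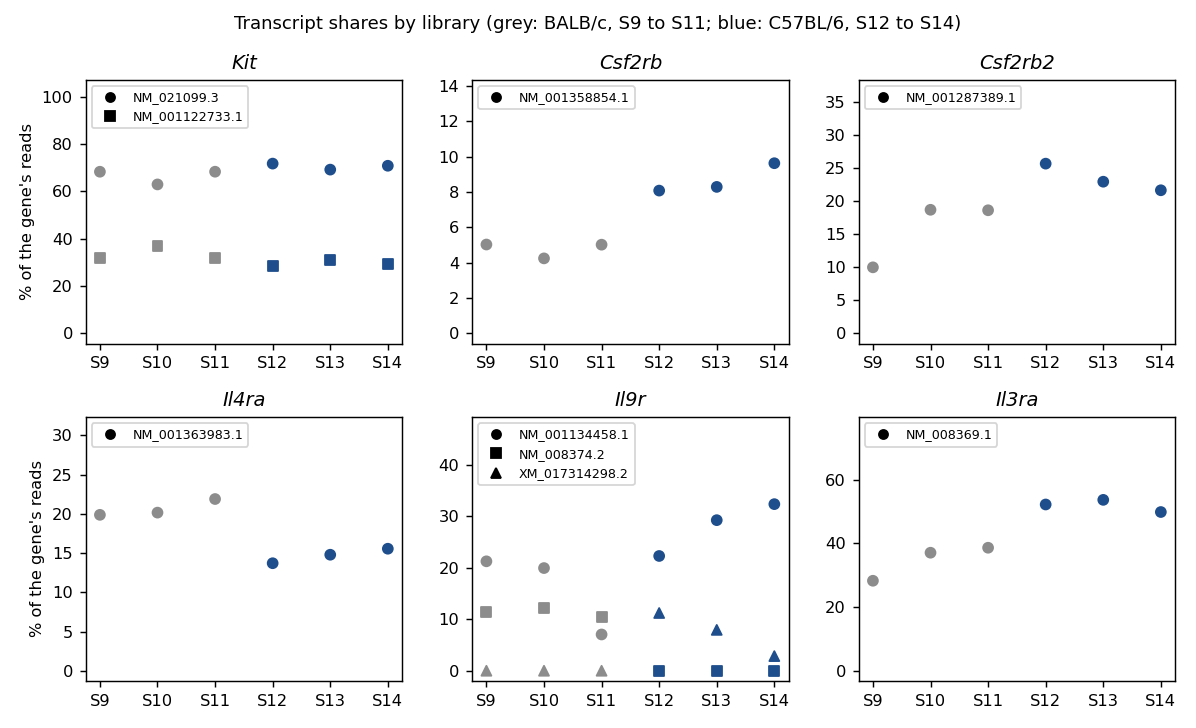
Percentage of a gene's reads on named RefSeq transcripts in each library, for Kit, Csf2rb, Csf2rb2, Il4ra, Il9r and Il3ra (grey, BALB/c; blue, C57BL/6; symbols mark transcripts). Il9r NM_008374.2 lay at 10.5% to 12.1% in BALB/c and at 0 in C57BL/6, and Il4ra NM_001363983.1 at 19.9% to 21.9% and 13.7% to 15.5%.

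Epor, the erythropoietin receptor (chr9:21870192-21874879, minus strand), was low in both strains and lower in C57BL/6. It had 236, 290 and 316 reads in BALB/c and 118, 98 and 108 in C57BL/6. These correspond to 6.25, 8.23 and 6.88 TPM against 2.64, 2.57 and 2.18 TPM, without overlap. On the TMM scale the BALB/c mean was 8.52 ± 1.16 CPM (SD, n = 3) and that of C57BL/6 3.46 ± 0.352 CPM (SD, n = 3). The log2 fold change was -1.30 (SE 0.13, edgeR adjusted p = 4.30e-05), and BALB/c was 2.47-fold higher. Its main transcript NM_010149.3 (1829 bases) had 212, 277 and 286 reads in BALB/c and 88.9, 85.2 and 87.3 in C57BL/6, a log2 fold change of -1.51 (SE 0.22, edgeR adjusted p = 0.0103). The 250 bases before the start of Epor (GRCm38.p6, chr9:21963577-21963826, minus strand) are printed because it fell the most of all members, with matches of AGATAA and GGGCGG on either strand in capitals.
Epor: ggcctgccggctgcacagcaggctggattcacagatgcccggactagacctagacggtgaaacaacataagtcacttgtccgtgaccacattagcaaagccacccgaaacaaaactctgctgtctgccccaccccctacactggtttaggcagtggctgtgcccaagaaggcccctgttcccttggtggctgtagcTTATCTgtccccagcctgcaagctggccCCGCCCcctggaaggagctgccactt
There was 1 match of AGATAA, the core bound by GATA factors, which 9.99% of promoters of this length hold, and 1 of GGGCGG. The STAT motif, the E-box and the CACCC motif, which 7.02%, 6.02% and 6.93% of promoters hold, had no match in this window.

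Erythroid marker genes were measured beside Epor. Of 7 erythroid markers 2 were tested. Klf1, an erythroid transcription factor, had 42, 60 and 60 reads in BALB/c and 19, 12 and 16 in C57BL/6 (log2 fold change -1.71, edgeR adjusted p = 0.000508). The beta globin gene Hbb-bt had 0 reads in each BALB/c library and 186, 160 and 214 in C57BL/6, through which alone it was tested. It had the most reads of the list in each C57BL/6 library. No BALB/c sequence was used, and whether beta globin RNA of BALB/c can be assigned to Hbb-bt was not tested. The summed level of the list, which includes Hbb-bt, was 2.47 to 3.52 TPM in BALB/c and 17.3 to 17.7 in C57BL/6, and Hba-a2 had no reads in any library. Alas2, the first enzyme of heme synthesis in red cell precursors, had at most 5 reads. The part of erythroid cells in the difference of Epor was not tested.

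Of 13 ligand genes 5 were tested and 8 had too few reads. Past both thresholds 2 were higher and 1 lower, against 7.73% and 5.54% of all genes tested. Kitl and Il7, the higher ones, passed the filter on low counts only through their C57BL/6 libraries, so this count is a description of what was tested. Il13, a cytokine of activated mast cells, fell in C57BL/6, from 1273, 1531 and 1743 reads to 506, 332 and 429 (log2 fold change -1.77, SE 0.12, edgeR adjusted p = 2.87e-06). Kitl, which encodes SCF, had 3, 1 and 0 reads in BALB/c and 63, 64 and 92 in C57BL/6. Il7 had 1, 0 and 0 reads in BALB/c and 112, 85 and 88 in C57BL/6. With at least 10 counts in every library neither was tested, and on the log2(TPM + 1) scale the difference of Kitl was 0.62, under 2-fold. Il3, Il9, Il21 and Epo had no reads in any library, so of the cytokines added to the medium, RNA of IL-3 and IL-9 was not seen in the cells at this depth.

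Of 8 other receptors of the gamma chain and IL-4 families, 4 were tested and 4 had too few reads. Those tested, Crlf2, Il21r, Il2ra and Il15ra, were higher past both thresholds, where 7.73% of all genes were. With at least 10 counts in every library Il21r and Il2ra were not tested, as they had as few as 8 reads in BALB/c. Both passed the filter on low counts only through their C57BL/6 libraries, so the count of 4 is a description of what was tested. Crlf2, the receptor chain for TSLP, was close to Il4ra in level, at 142, 146 and 139 TPM in BALB/c and 376, 365 and 383 TPM in C57BL/6. It rose by a log2 fold change of 1.56 (SE 0.037, edgeR adjusted p = 4.81e-09). Il21r had 13, 8 and 11 reads in BALB/c and 363, 227 and 364 in C57BL/6 (log2 fold change 4.94, SE 0.20, edgeR adjusted p = 1.21e-07). Il2ra and Il15ra also rose from low levels, with at most 32 and 53 reads in any library. The log2 fold change of Il15ra, 1.06, was under 2-fold without S9 (0.89) or S12 (0.99), with plain library sizes (0.92) and on the TPM scales (0.43 and 0.82). That of Il2ra was 0.23 on the log2(TPM + 1) scale. Il13ra1, with which Il4ra forms the receptor for IL-13, had 0 to 9 reads in any library.

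Of 15 other class I cytokine receptors 8 were tested, and 2 were higher and 1 lower past both thresholds, against 7.73% and 5.54% of all genes. Il11ra1, the chain for IL-11, had 11, 10 and 18 reads in BALB/c and 148, 124 and 197 in C57BL/6 (log2 fold change 3.64, SE 0.20, edgeR adjusted p = 8.43e-07). Ghr had 2, 1 and 2 reads in BALB/c and 13, 38 and 24 in C57BL/6. It was tested only through its C57BL/6 reads, was not tested with at least 10 counts in every library, and differed by 0.36 on the log2(TPM + 1) scale, under 2-fold. Il12rb1, a chain of the IL-12 and IL-23 receptors, was lower in C57BL/6 (log2 fold change -1.06, SE 0.11, edgeR adjusted p = 5.27e-05). The value was under 2-fold with an offset for transcript length (-0.85 with edgeR) and on the TPM scales (-0.67 and -0.98), and it was 0.13 with curated transcripts alone (edgeR adjusted p = 0.769). The other class III receptor tyrosine kinases, relatives of Kit, had hardly any reads. Csf1r and Pdgfra had 0 reads in all libraries, and Flt3 and Pdgfrb at most 3. Flt3 had the largest mean level of that list, 0.0077 TPM in BALB/c and 0.026 TPM in C57BL/6.

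Of 32 genes for signalling next to these receptors, 32 were tested and 3 passed both thresholds, all higher in C57BL/6, where 7.73% of all genes tested were, with a list median of 0.085. Irs2, an adaptor that binds the IL-4 receptor, lay at 18.8, 13.2 and 11.99 TPM in BALB/c and at 53.2, 48.1 and 40.7 TPM in C57BL/6 (log2 fold change 1.87, SE 0.15, edgeR adjusted p = 9.70e-06). Fyn, a Src family kinase, lay at 7.08, 4.45 and 7.78 TPM in BALB/c and at 10.6, 13.4 and 12.5 TPM in C57BL/6 (log2 fold change 1.08, SE 0.18, edgeR adjusted p = 0.000953). It was under 2-fold without S10 (0.88) or S13 (0.99), with plain library sizes (0.94) and on the TPM scales (0.85 and 0.94). Sh2b2, an adaptor, had at most 25 reads in any library (log2 fold change 1.15, SE 0.34, edgeR adjusted p = 0.0179) and missed the threshold without S11, S12 or S13 (0.0606 to 0.0698). It also missed it with DESeq2 (adjusted p = 0.0951, and 0.0874 with a length offset), with unmatched transcripts kept (edgeR adjusted p = 0.0739) and with curated transcripts alone (0.180), and was under 2-fold on the TPM scales. By adjusted p alone, 13 genes of this list were higher and 7 lower, against 27.0% and 25.9% of all genes tested.

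**Figure D5:**
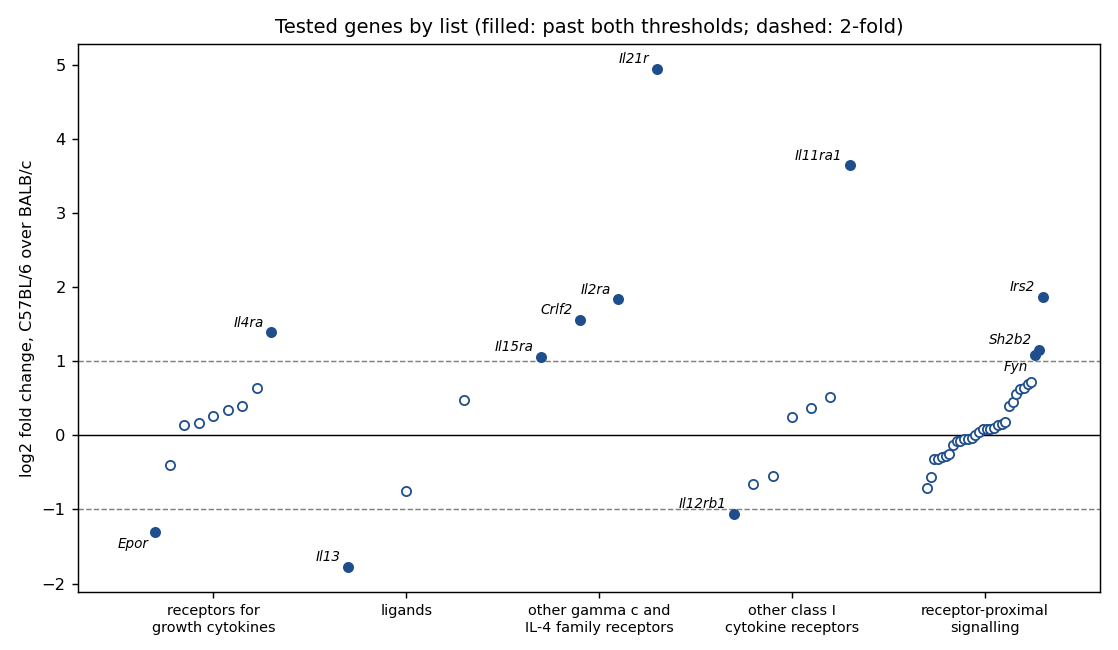
Difference between strains (log2, C57BL/6 over BALB/c) for the tested genes of the receptor, ligand and signalling lists named under the axis (filled, past both thresholds; dashed lines, 2-fold). Kitl, Il7 and Ghr, which had at most 3 reads in every BALB/c library, are left out, and Il21r and Il11ra1 lay highest among the genes drawn from these lists. Il21r and Il2ra are drawn but passed the filter on low counts only through C57BL/6.

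Genes whose levels were most like those of a member over the 6 libraries were found by the root mean square difference of log2(TPM + 1). For Kit these were Pdia3 (0.0673) and Gnai2 (0.0911). For Il4ra they were Crlf2 (0.111) and Mcpt8 (0.216), and for Epor Dhdh (0.147) and Rasgrp1 (0.157). Crlf2, the gene most like Il4ra, lay at 139 to 146 TPM in BALB/c and 365 to 383 TPM in C57BL/6, where Il4ra lay at 137 to 155 and 332 to 353 TPM. Likeness of level over so few libraries is a description of these libraries, and all of these genes other than Pdia3 and Gnai2 differed between strains past both thresholds.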

How the data were processed

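RNA of BMMCs on day 20 was sequenced by the authors from 3 BALB/c and 3 C57BL/6 libraries. Per the labels and the study's methods, FastQC v0.11.5 served for quality control and Salmon v0.8.2 for quantification. For each RefSeq transcript the deposited tables give its length, its estimated count (often with decimals) and its TPM. The study's methods name Ensembl transcripts of GRCm39, whereas the tables hold RefSeq names. The same names serve both strains. How far sequence differences between the strains affect the assignment of reads was not tested. Of 129698 transcripts 106440 were matched to symbols, without version, through a RefSeq table of GRCm38.p6, and the rest entered neither library sizes nor the main tests. Gene values are sums of estimated counts, rounded to whole numbers.

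The main test was edgeR 4.0.16 (R 4.3.3, quasi-likelihood, TMM, minimum count 10, strain as the only term), with Benjamini-Hochberg adjustment over all features. SEs are the absolute log2 fold change over the root of the F statistic, and shares of transcripts were tested with edgeR's diffSpliceDGE. The biological coefficient of variation was 0.0665. Chi-square per degree of freedom between libraries of a strain was 6.60 to 13.6, so no pair agreed within counting noise, which does not show that they have separate sources. Scripts were tested on simulated counts with 4-fold changes. The edgeR gene test recovered 200 of 200 changed genes with 1 false call. The test of transcript shares recovered 144 of 162 changed transcripts with 16 false calls. Errors of assigning reads were not simulated. Exact permutation tests used scipy 1.17.1. Sequences and positions came from GENCODE vM39 on GRCm39, and promoters from RefSeq on GRCm38.p6. Alternatives used DESeq2 1.42.0, limma 3.58.1, other scaling, filters and transcript sets, and left out each library.

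The members and gene lists (ligands, other gamma chain, class I and class III receptors, signalling, and the cell type lists) were chosen with earlier results of these data known. Named were all members, related and cell type genes past both thresholds or, for a list with none, the gene with the largest mean level, the 2 genes nearest in level to Kit, Il4ra and Epor, and transcripts that passed a test or held the most reads of their gene. Other genes given by their reads were chosen after their values were seen. A listed marker gene is not reported here.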

Additional observations from a re-analysis of the deposited data

How the results depend on the processing

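Il4ra higher and Epor lower in C57BL/6 passed both thresholds under each of the 19 alternatives, and the number of members past both thresholds was 2 in the 18 in which it was counted, those other than the sum of Csf2rb and Csf2rb2. By adjusted p alone the number was 6 to 9, and 7 to 9 when 1 library was left out. Kit reversed to -0.0039 with plain library sizes and to -0.034 on both the log2(TPM + 1) and the log2(TPM + 0.1) scale, and Csf2rb to -0.0069 on both TPM scales; the cause was not tested beyond the shift of the median of all genes by -0.15 to -0.18 on these scales. The other tested members kept their direction in all alternatives. The 10 other receptors and ligands past both thresholds became 5 with at least 10 counts in every library, where 11 rather than 17 genes were tested, 5 on the log2(TPM + 1) scale, and 9 to 11 when 1 library was left out. The 3 signalling genes became 1 on both TPM scales (Irs2) and 1 to 3 when 1 library was left out, with the lowest number without S13. The 4 transcripts with a changed share became 2 with at least 10 counts in every library, where NM_008374.2 and XM_017314298.2 were not tested, and 3 or 4 when 1 library was left out. Transcripts past both thresholds numbered 4 to 6. The difference of the Csf2rb2 share lay between 7.51 and 7.75 percentage points. No paired analysis was possible because the labels give the strains no shared replicate numbers. With 3 libraries a strain, exact permutation tests cannot go below p = 0.1, and for Il5ra and the transcripts with few reads the depth limits what can be seen.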

Other observations

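Of the 12 genes of the mast cell list, 6 were higher and 3 lower in C57BL/6 by edgeR's adjusted p, against 27.0% and 25.9% of all genes tested. Both thresholds were passed by 2, each higher, against 7.73% of all genes. Tpsb2, a tryptase gene, lay at 1302, 1773 and 1769 TPM in BALB/c and at 7630, 6992 and 6663 TPM in C57BL/6 (log2 fold change 2.32, SE 0.12, edgeR adjusted p = 5.16e-07). Hdc, the enzyme of histamine synthesis, lay at 1.60, 1.80 and 1.10 TPM in BALB/c and at 2.54, 3.26 and 3.23 TPM in C57BL/6 (log2 fold change 1.19, SE 0.19, edgeR adjusted p = 0.000735). The median log2 fold change of the list was 0.092.

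Neutrophil, B cell and most T or NK cell markers had few or no reads. Of 9 neutrophil genes 7 had no reads in any library, and the list summed to at most 0.263 TPM. No B cell gene had more than 6 reads. Of 7 matched T or NK cell genes 4 had no reads in any library, and Ncr1 alone was tested, with 120 to 204 reads (log2 fold change -0.14, edgeR adjusted p = 0.327). The megakaryocyte list summed to 648 to 662 TPM in BALB/c and 714 to 790.4 TPM in C57BL/6. Of its 4 genes 2 were tested. Itga2b was higher and Gp1ba lower in C57BL/6 by edgeR adjusted p, neither by 2-fold, against 27.0% and 25.9% of all genes tested. Gp9 had no reads.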
